A study of Rattus norvegicus with 86 samples.

Results

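The 200 genes described here were the least variable of the well-expressed genes in the core of the nucleus accumbens, part of the ventral striatum, of outbred Heterogeneous Stock (HS) rats. They were taken from 17180 genes measured by RNA-Seq. A gene counted as well expressed when its mean over 75 libraries was at least 8 on the deposited log2 scale, and 8613 genes did. Each rat batch's mean was then subtracted from each gene, with rat batch 5 left out because it held 1 library, and the 200 genes with the smallest standard deviation (SD) of what was left were kept. The level and this SD therefore chose the genes and are given as a description, with no test.

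Each library came from 1 untreated rat. Tissue from both hemispheres of a rat was pooled into 1 sample, dissected from frozen sections. The labels gave each rat's sex and a rat batch number, whose meaning they did not state. The series held 86 samples, of which 11 were labelled as removed, and the 75 libraries came from 38 females and 37 males. Rat batch 2 held 12 libraries (2 female, 10 male), rat batch 3 held 20 (13 and 7), rat batch 4 held 26 (14 and 12), rat batch 5 held 1 female and rat batch 6 held 16 (8 and 8). The rats carried no engineered allele named in the labels. Libraries held a mean total count of 17739709 ± 3103012 (SD, n = 75), and the recovered totals ran from 8455342 to 26145621. Of the defining markers of striatal medium spiny neurons, the 3 that could be paired with an identifier were present, Pdyn at a mean level of 13.43, Penk at 14.63 and Pde10a at 11.999 (log2 scaled count).

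Genes with little variation between animals are often those of basic cell functions, such as protein sorting, RNA processing and energy metabolism, which nearly all cells carry out. Transport between endosomes, the Golgi apparatus and lysosomes is directed by small Rab GTPases, tethering complexes and SNARE proteins. In neurons the same machinery recycles synaptic membrane and moves receptors. Bulk tissue holds many cell types, so fewer cells of a type and less RNA per cell cannot be told apart in these values.

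The files gave Ensembl identifiers without names. Symbols were available for 34 of the 200 genes, from lists of identifiers and symbols in the study's supplementary material. Those lists were made of genes with a mapped cis-eQTL, a genetic variant near the gene associated with its level, so the 34 are not a random draw from the 200. Among the 8613 well-expressed genes 1841 had a symbol. The 34 genes had a median SD of 0.079 and the genes without a symbol 0.078. Both groups were chosen by a small SD, so these medians had to be close. They do not show that the 34 represent the 200. The other genes are given by identifier where they are singled out.

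The upstream sequences of 3 of the named genes are shown, for Rab5b and Rab7a because they were the least variable genes whose promoter was held, and for Samm50 because it differed most between rat batches. Each is the 250 bases before the annotated start of the gene, from RefSeq on the rat assembly GRCr8, 5′ to 3′ on the gene's strand. Capitals mark GGGCGG, the GC box that Sp-family factors can bind, and CCAAT, the CCAAT box, on either strand, so that CCGCCC and ATTGG are the same motifs read from the other strand. Rab5b lies on the minus strand at chr7:1712737-1712986, Rab7a on the minus strand at chr4:122064186-122064435 and Samm50 on the plus strand at chr7:117197210-117197459.
Rab5b: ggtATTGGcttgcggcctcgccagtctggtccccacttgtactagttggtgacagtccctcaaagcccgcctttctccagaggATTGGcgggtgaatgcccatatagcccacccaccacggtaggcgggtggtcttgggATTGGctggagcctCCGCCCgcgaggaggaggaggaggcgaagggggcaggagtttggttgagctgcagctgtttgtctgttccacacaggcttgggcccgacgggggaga
Rab7a: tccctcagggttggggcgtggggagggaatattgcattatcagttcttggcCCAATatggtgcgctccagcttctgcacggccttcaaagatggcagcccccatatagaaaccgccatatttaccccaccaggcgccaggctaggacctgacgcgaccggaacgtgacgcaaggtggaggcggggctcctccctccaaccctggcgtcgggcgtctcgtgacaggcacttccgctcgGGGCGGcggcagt
Samm50: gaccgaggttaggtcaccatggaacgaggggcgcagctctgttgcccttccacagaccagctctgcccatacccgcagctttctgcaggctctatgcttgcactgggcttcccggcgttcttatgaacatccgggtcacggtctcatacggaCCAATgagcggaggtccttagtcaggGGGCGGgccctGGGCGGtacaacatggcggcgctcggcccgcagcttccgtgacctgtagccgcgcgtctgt

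All 3 sequences held both motifs. Over all 28 named genes with a promoter sequence, counted over the window from 250 bases before to 50 after the start, GGGCGG was present on either strand in 22 (78.6%), against 66.5% of 1336 other well-expressed genes and 35.9% of 24206 promoters in the table. CCAAT was present in 14 (50.0%), against 36.7% and 37.8%. CCGGAAG, an ETS-type motif, was present in 8 (28.6%), against 18.7% and 9.49%. The motif of NRF1, a regulator of nuclear genes for mitochondria, was present in 3 (10.7%), against 11.3% and 4.95%. TATAAA, the TATA box, was present in 0 of 28, against 5.61% and 14.3%. The motifs differ in sequence and can lie side by side but were counted separately. The median number of CG dinucleotides was 23 per promoter, ranging from 5 to 45, against a median of 22 in the other well-expressed genes and 8 in the whole table. These shares describe the letters in the window only.

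The 200 genes had mean levels between 9.50 and 14.96 with a median of 11.31, against a median of 9.73 for the other 8413 well-expressed genes. A mean of at least 10 was reached by 191 of them and by 43.8% of all well-expressed genes. The levels are scaled read counts that were not divided by transcript length, so they order the genes by reads and not by transcripts. In recovered reads, the genes averaged from 699 to 30870 per library with a median of 2462. The highest mean level, 14.96, belonged to ENSRNOG00000015514, whose values ran from 14.76 to 15.16 with an SD of 0.065 within rat batches. The 10 highest mean levels reached down to 13.67, and Rtn3 and Ttyh1, at 14.16 and 13.85, were the ones with a symbol.

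The SD left after the rat batch means were subtracted ran from 0.052 to 0.086 log2 units over the 200 genes with a median of 0.079, against a median of 0.162 in the other well-expressed genes. The ratio of the highest to the lowest of the 75 libraries was between 1.16 and 1.57, with a median of 1.34. It stayed within 1.5-fold for 96.5% of the 200 genes and within 2-fold for all 200, against 10.9% and 61.2% of the other well-expressed genes. Just inside the limit of 200 genes stood ENSRNOG00000020056, ENSRNOG00000005355 and Stard7, with SDs of 0.08573, 0.08574 and 0.08593. Just outside stood ENSRNOG00000002855, Atp5f1a and ENSRNOG00000001253 with 0.08597, 0.08597 and 0.08600, so the limit fell in a dense part of the distribution.

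**Figure D1:**
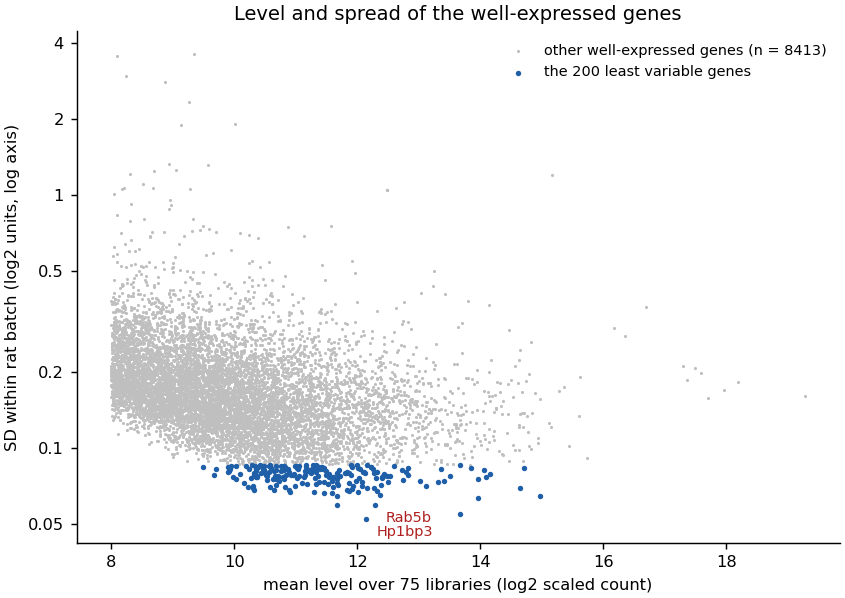
Mean level over 75 libraries (x axis, log2 scaled count) against the SD within rat batches (y axis, log2 units on a log axis), 1 point per gene, for the 200 least variable genes (blue) and the other 8413 well-expressed genes (grey). The blue points lie between 0.052 and 0.086 and at levels of 9.50 to 14.96, while the grey points have a median SD of 0.162.

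Part of each SD comes from counting reads. From the recovered counts, the SD that counting alone would give had a median of 0.030 over the 200 genes, and counting made up a median of 14.5% of their variance within rat batches, against 9.51% in the other well-expressed genes. The share was at most 45.0%. With it subtracted, the median SD was 0.072, against 0.152 in the other well-expressed genes. Of the 200 genes, 158 were also among the 200 smallest by this measure.

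Hp1bp3, a linker-histone-like protein that binds heterochromatin protein 1, had the smallest SD of all 8613 well-expressed genes, 0.052. Its level ran from 12.06 to 12.22 in the 12 libraries of rat batch 2, with a median of 12.12. In rat batch 3 it ran from 12.07 to 12.22 with a median of 12.15, in rat batch 4 from 12.01 to 12.22 with a median of 12.12, and in rat batch 6 from 12.03 to 12.23 with a median of 12.14. The single library of rat batch 5 had 12.10. All rat batches overlapped over nearly the whole of their ranges, and the highest library was 1.16-fold above the lowest. The second smallest SD, 0.055, was that of ENSRNOG00000056870, with values from 13.51 to 13.80. The 10 smallest SDs ended at 0.067, and Hp1bp3, Rab5b and Rab7a were the genes with a symbol among them.

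Rab5b, a GTPase of early endosomes, followed with the third smallest SD, 0.059. Its level ran from 12.12 to 12.41 with a median of 12.27 in rat batch 2, from 12.18 to 12.43 with a median of 12.27 in rat batch 3, from 12.19 to 12.39 with a median of 12.28 in rat batch 4 and from 12.21 to 12.39 with a median of 12.29 in rat batch 6. On this deposited scale no rat batch stood apart and its batch means lay within 0.027 of each other, but between rat batches 4 and 3 it was called higher, by 0.081 ± 0.018 (SE, limma, adjusted p = 0.000236) after quantile normalization. Rab7a, the GTPase of late endosomes and lysosomes, had the eighth smallest SD, 0.065. Its level ran from 12.32 to 12.49 with a median of 12.43 in rat batch 2, from 12.26 to 12.54 with a median of 12.41 in rat batch 3, from 12.21 to 12.44 with a median of 12.34 in rat batch 4 and from 12.20 to 12.43 with a median of 12.34 in rat batch 6. The libraries of rat batches 4 and 6 were the lower ones on the deposited scale, with ranges that overlapped those of rat batches 2 and 3. Ptpra, a receptor-type tyrosine phosphatase, ranked at 20 with an SD of 0.069. Its batch means were 11.84, 11.91, 11.92 and 11.95 in rat batches 2, 3, 4 and 6.

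**Figure D2:**
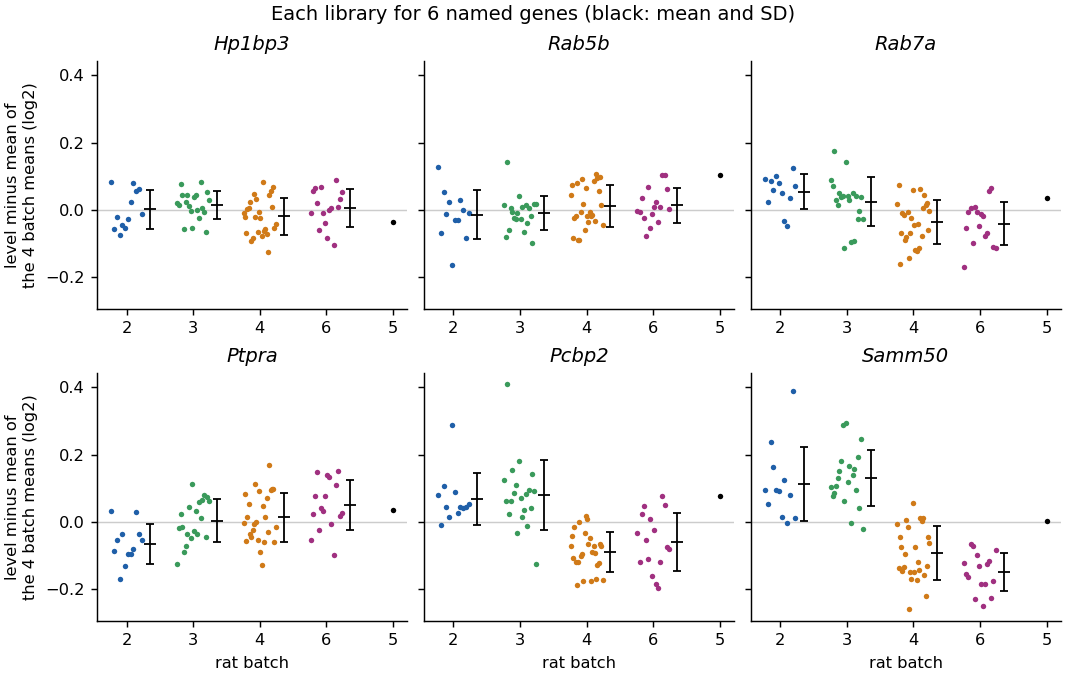
Level in each library (points) minus the mean of the 4 rat batch means (y axis, log2 units) by rat batch (x axis), for 6 named genes, with the mean and SD of each rat batch in black and the 1 library of rat batch 5 at the right. On this deposited scale the batch means of Hp1bp3 and Rab5b span 0.033 and 0.027, while the batch means of Pcbp2 and Samm50 are lower in rat batches 4 and 6, by up to 0.170 and 0.280.

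The 34 named genes were sorted by their known roles after the names were seen, and the share of each role among all named well-expressed genes was not measured. Membrane traffic had 10 genes, with SDs between 0.059 and 0.085. Besides Rab5b and Rab7a it held Vps16, a subunit of the tethering complexes of late endosomes, at a mean level of 9.99, and Stx6, a SNARE protein of the trans-Golgi network, at 11.50. Necap1, which works in clathrin-mediated endocytosis, had a mean level of 12.08, Glg1, a glycoprotein of the Golgi membrane, 12.44, and Galnt11, which starts O-linked sugar chains on proteins, 10.49. Rtn3, a reticulon that shapes the tubules of the endoplasmic reticulum, had the highest mean of the named genes, 14.16. Mtmr3, a phosphatase of phosphoinositide lipids, had 10.996 and Arl2bp, which binds the small GTPase Arl2, had 11.84.

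RNA-binding and nuclear proteins fell into 2 groups of 5 genes. RNA processing and translation held Ddx23 and Snrnp200, helicases of the U5 part of the spliceosome, with SDs of 0.079 each, the RNA-binding protein Pcbp2 (0.082), the RNA helicase Ddx1 (0.085) and Zc3h7b (0.078). Chromatin, transcription and nuclear import held Hp1bp3, Mta2, a subunit of the NuRD deacetylase complex (0.076), Kpnb1, the importin that carries proteins into the nucleus (0.074), the leucine-zipper regulator Tsc22d1 (0.077) and the zinc-finger protein Zfp444 (0.082).

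Mitochondria were represented by 5 genes with mean levels between 10.03 and 11.18. These were Dlst, a subunit of the 2-oxoglutarate dehydrogenase complex, with an SD of 0.072, Dnaja3, a mitochondrial co-chaperone (0.081), Samm50, which inserts proteins into the outer membrane (0.083), Nnt, the transhydrogenase that makes NADPH (0.085), and Stard7, a lipid-transfer protein (0.086). Autophagy and ubiquitin held Ambra1, Nbr1 and the conjugating enzyme Ube2q1, with SDs of 0.080, 0.080 and 0.084. The protein kinase Csnk1d (0.072), Ptpra and the membrane protein Ttyh1 (0.083) made up a further group, and Scrn1, Atxn7l3b and LOC100909595 were not grouped.

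Lists of 22 pathways and cell types named only 4 of the genes, Ube2q1 among the ubiquitin-conjugating enzymes, Rab5b and Rab7a among the Rab and Arf GTPases, and Snrnp200 among the splicing factors. The lists could not be read as coverage, because at most 37.5% of the genes of any list could be paired with an identifier. The pairs came from lists of genes with a mapped cis-eQTL, so the paired genes are not a random draw from any list. Whether they vary more than the unpaired ones was not tested, and their SDs do not stand for a whole list. Of the GTPase list 5 genes were paired and had SDs from 0.059 to 0.153, and of the splicing list 5 were paired and ran from 0.079 to 0.209. The 12 well-expressed ribosomal protein genes that were paired, from a list of 76, had SDs from 0.126 to 1.247 with a median of 0.208. None was among the 200. Actb, often used as a reference gene, had an SD of 0.115 and ranked at 1363, and B2m had 0.167 and ranked at 4673.

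Whether the genes stay steady in animals that did not choose them was examined by leaving out each rat batch, choosing the 200 genes anew from the other rat batches, and taking the SD in the batch left out. In rat batch 2 the genes so chosen had a median SD of 0.078, against 0.157 in the other well-expressed genes. The medians were 0.082 against 0.150 in rat batch 3, 0.085 against 0.161 in rat batch 4 and 0.084 against 0.160 in rat batch 6. Between 197 and 199 of the 200 genes lay under the median of the well-expressed genes in the batch left out, and 122 (rat batch 2) to 160 (rat batch 4) were in the lowest 10% of them. Between 152 and 165 of the genes so chosen were among the 200 described here.

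**Figure D3:**
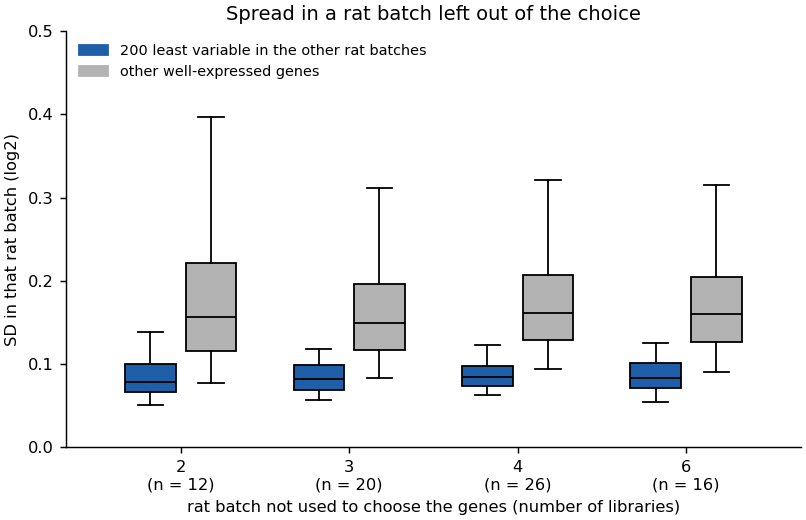
SD (y axis, log2 units) in each rat batch that was left out of the choice (x axis), for the 200 genes least variable in the other rat batches (blue) and for the other well-expressed genes (grey). Boxes give the quartiles with the median as a line, and whiskers reach the 5th and 95th percentiles. The blue medians lie between 0.078 and 0.085 and the grey ones between 0.150 and 0.161.

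Correlations between the residuals of the 200 genes are given as a description. Across the 74 libraries the median correlation between the residuals of 19900 pairs of them was 0.074, from -0.589 to 0.756, with 260 pairs over 0.5. The pairs share libraries and scaling, and the choice of genes by small residuals limits how far they could move together. No such values were taken for other genes, so no conclusion is drawn from these. The first principal component held 12.6% of their variance and the second 9.64%. The median of the 200 residuals differed between libraries with an SD of 0.023, from -0.049 to 0.070, and removing it took the median SD of the genes to 0.076.

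The spread of the 200 residuals within a library had a median of 0.069 over the 74 libraries. It was widest in rat 6 of rat batch 2, at 0.113, in rat 10 of rat batch 4, at 0.111, and in rat 14 of rat batch 6, at 0.104. These were also the 3 libraries of the lowest total counts, 8455342, 10916075 and 10372222. The next lowest totals, 11586023 and 12019505, had spreads of 0.062 and 0.077, and a part of depth in the spread was not tested. Without the 3 libraries the median SD of the 200 genes was 0.076, and 177 of them were again chosen.

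The means of rat batches 2, 3, 4 and 6 differed by a median of 0.0998 log2 units between the highest and the lowest batch, which is 1.07-fold, against 0.205 (1.15-fold) in the other well-expressed genes. The range was under 0.1 for 100 of the 200 genes, over 0.2 for 12 and over 0.5 for 0, against 13.5%, 51.8% and 7.49% of the other well-expressed genes. It was smallest, at 0.019, for ENSRNOG00000016905 and largest, at 0.280, for Samm50. The sampling error of a batch mean grows with the SD that chose the genes, so part of the smaller range follows from the choice. The range exceeded the gene's own SD within rat batches for 71.5% of the 200 genes and 67.9% of the other well-expressed genes. In none of the 200 genes, nor in any other well-expressed gene, did all libraries of rat batches 2 and 3 lie apart from all those of rat batches 4 and 6.

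A moderated F test of the rat batches in limma, with sex as a covariate and Benjamini-Hochberg adjustment over all 17180 genes, called 140 of the 200 genes at an adjusted p under 0.05, against a background of 53.5% of all genes and 70.5% of the well-expressed genes. The SD that chose the genes is the denominator of this test, so nothing is read from the difference of these shares. The contrast of rat batches 2 and 3 with 4 and 6 nearly followed the runs of columns in the deposited table, stretches in which the rat identifiers rise. With the run as a further covariate the test called 2 of the 200 genes (0.984% of all genes). The pairwise and single-gene differences between rat batches 2 or 3 and 4 or 6 that follow cannot be told apart from differences between runs. With 20 expression components as covariates the test called 0 (0.0698% of all genes). Components taken from the same values can absorb rat batch differences, so nothing is read from this 0. Hp1bp3 (adjusted p = 0.295 in limma), Rab5b (0.563), Mta2 (0.607) and Zc3h7b (0.969) were among the 60 not called.

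The direction of the differences depended on the scaling. On the deposited scale 142 of the 200 genes had a lower mean in rat batches 4 and 6 than in rat batches 2 and 3, against 53.2% of the well-expressed genes. After quantile normalization the number was 116 of 200, against 50.9% of the well-expressed genes. When recovered counts were scaled by the total count it was 94 of 200, against 41.2% of the well-expressed genes. The median difference over the 200 genes was -0.039 as deposited, -0.011 after quantile normalization and 0.009 by total count, and that over the well-expressed genes was -0.013, -0.003 and 0.036. Between females alone 146 genes were lower as deposited, against 53.3% of the well-expressed genes, and between males alone 140, against 52.0%. Rat batch 2 held only 2 females and its mean had the same weight as that of rat batch 3, so the female count leans on these 2 rats.

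**Figure D4:**
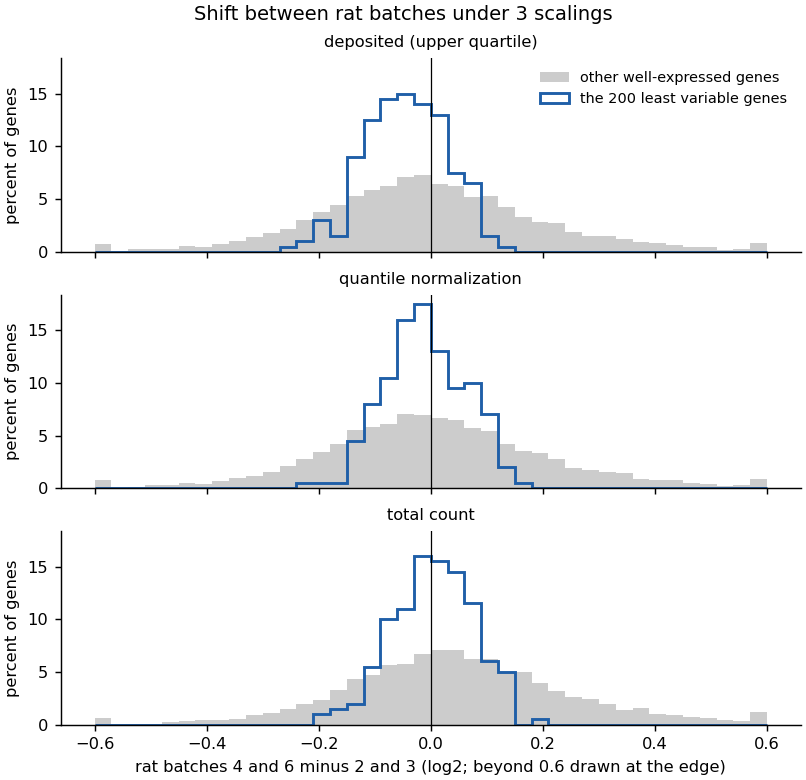
Percent of genes (y axis) by the mean of rat batches 4 and 6 minus that of rat batches 2 and 3 (x axis, log2 units), for the 200 least variable genes (blue line) and the other well-expressed genes (grey), under the deposited upper-quartile scaling, quantile normalization and total-count scaling. The blue distribution is the narrower in each panel, and its median moves from -0.039 to -0.011 and 0.009.

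Between rat batches 4 and 3, the largest groups, limma called 88 of the 200 genes lower in rat batch 4 and 14 higher on the deposited values, against 20.3% and 19.6% of all genes. After quantile normalization the counts were 48 and 37 (20.2% and 19.4% of all genes), and with voom, limma's method for counts, scaled by total count they were 27 and 46 (12.5% and 26.2%). Between rat batches 6 and 3 the deposited values gave 93 lower and 14 higher (22.3% and 20.8% of all genes). For this pair quantile normalization gave 53 and 35 (21.6% and 21.2%), and voom gave 24 and 60 (12.7% and 30.4%). Between rat batches 4 and 2 the deposited values gave 66 lower and 16 higher (13.2% and 13.7% of all genes), and between 6 and 2 they gave 77 and 17 (17.9% and 16.9%). For these pairs quantile normalization gave 43 lower and 30 higher between 4 and 2 (13.3% and 14.1% of all genes), and 55 and 33 between 6 and 2 (17.2% and 17.5%). With voom these counts were 50 and 14 (12% and 13.4% of all genes) and 41 and 34 (13.8% and 19.5%). Of the other pairs, the deposited values gave 2 lower and 10 higher in rat batch 3 than in 2 (1.96% and 1.48% of all genes), and 8 lower and 2 higher in rat batch 6 than in 4 (1.40% and 2.47%). In these last pairs voom gave 20 lower and 0 higher in rat batch 3 than in 2 (4.72% and 0.262% of all genes), and 0 lower and 8 higher in rat batch 6 than in 4 (0.896% and 4.61%). Quantile normalization gave 6 lower and 5 higher in rat batch 3 than in 2 (2.18% and 1.29%). In rat batch 6 against 4 it gave 5 lower and 3 higher (1.33% and 2.82%). In all 4 comparisons of rat batch 2 or 3 with 4 or 6, 47 of the 200 genes were called lower and 2 higher in rat batch 4 or 6 on the deposited values, against 8.03% and 7.51% of all genes. The comparisons share rat batches and are not independent of each other. As in the F test, the SD that chose the genes is part of the denominator, and the shares are over all genes, whatever their level. Nothing is read from the difference of these shares, here or for the named genes and the runs below.

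Of the 34 named genes, 14 were called lower in rat batch 4 than in rat batch 3 on the deposited values and 3 higher, against 20.3% and 19.6% of all genes. The split turned with the scaling, to 8 lower and 8 higher after quantile normalization (20.2% and 19.4% of all genes) and 4 lower and 10 higher with voom (12.5% and 26.2%). Of the 14, Samm50, Pcbp2, Ube2q1 and Necap1 were called lower under all 3 scalings. Nbr1, Atxn7l3b and Galnt11 were called higher under all 3. Rab5b, Ptpra, Kpnb1, Glg1 and Scrn1 were called higher after quantile normalization and with voom but not as deposited, and Mtmr3 and Stard7 with voom only.

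Samm50 ran from 10.25 to 10.64 with a median of 10.35 in rat batch 2, from 10.23 to 10.55 with a median of 10.38 in rat batch 3, from 9.99 to 10.31 with a median of 10.14 in rat batch 4 and from 10.001 to 10.19 with a median of 10.11 in rat batch 6. The highest values were in rat batches 2 and 3 and the lowest in 4 and 6, and the library of rat batch 5, at 10.25, lay between. The difference of rat batch 4 from 3 was -0.22 ± 0.026 (SE, limma, adjusted p = 2.07e-10), and with voom -0.16 ± 0.027 (adjusted p = 1.51e-06). Pcbp2, which binds poly-C stretches of RNA, ran from 11.28 to 11.58 with a median of 11.33 in rat batch 2, from 11.16 to 11.70 with a median of 11.37 in rat batch 3, from 11.10 to 11.31 with a median of 11.20 in rat batch 4 and from 11.09 to 11.37 with a median of 11.22 in rat batch 6. It differed by -0.17 ± 0.025 (SE, limma, adjusted p = 8.21e-08) between rat batches 4 and 3, and by -0.11 ± 0.027 with voom (adjusted p = 0.000528). Ube2q1 differed by -0.15 ± 0.026 (SE, limma, adjusted p = 4.47e-06) and by -0.090 ± 0.027 with voom (0.00553). Necap1 differed by -0.12 ± 0.023 (SE, limma, adjusted p = 1.54e-05), and by -0.062 ± 0.022 with voom (0.021).

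Nbr1, a receptor that brings ubiquitin-tagged cargo to autophagosomes, was 0.061 ± 0.025 higher in rat batch 4 than in 3 (SE, limma, adjusted p = 0.0457), and 0.12 ± 0.024 higher with voom. Galnt11 was 0.083 ± 0.027 higher (adjusted p = 0.00897 in limma), and 0.14 ± 0.029 with voom. Atxn7l3b was 0.097 ± 0.026 higher (adjusted p = 0.00187 in limma), and 0.16 ± 0.029 with voom. Rab7a was called lower as deposited, with a difference of -0.059 ± 0.021 (SE, limma, adjusted p = 0.02), but its difference was 0.002 ± 0.020 with voom. Rab5b was not called as deposited (0.019 ± 0.020), but was 0.079 ± 0.019 higher with voom (adjusted p = 0.0004).

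**Figure D5:**
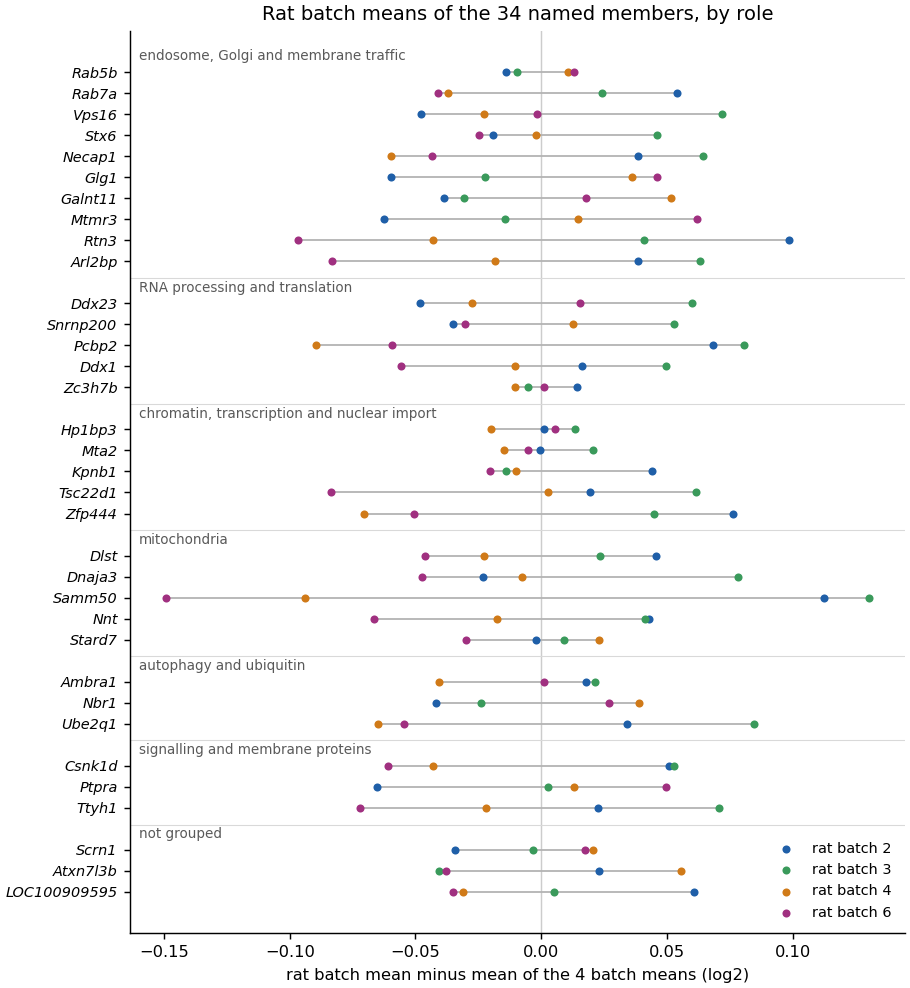
Mean of each rat batch (coloured points) minus the mean of the 4 rat batch means (x axis, log2 units) for the 34 named genes (y axis), grouped by role. Ranges run from 0.025 for Zc3h7b to 0.280 for Samm50 on this deposited scale.

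Of the 12 genes with a range over 0.2, 11 had lower means in rat batches 4 and 6 than in 2 and 3 on the deposited scale, and only Samm50 had a symbol. This count was not taken under the other scalings or for other well-expressed genes of such a range, so nothing is read from it. ENSRNOG00000001719, with an SD of 0.068 at rank 14, had batch means of 11.96, 12.01, 11.78 and 11.74 in rat batches 2, 3, 4 and 6. The exception was ENSRNOG00000007131, with batch means of 9.65, 9.61, 9.70 and 9.84.

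The columns of the deposited table stood in 3 such runs, and what a run stands for was not stated. All libraries of rat batch 2 belonged to the first run and all of rat batches 4, 5 and 6 to the third, while rat batch 3 was split into 7, 12 and 1 libraries. Rat batches 4 and 6 thus shared a run, as did rat batch 2 and 7 libraries of rat batch 3, while rat batch 2 shared none with 4 or 6, and rat batch 3 shared a run with them through 1 library. Within rat batch 3, limma called 18 of the 200 genes between the first and second run, 11 higher and 7 lower in the second, against 11.1% of all genes. The median absolute difference between these runs was 0.048 over the 200 genes and 0.096 over the other well-expressed genes. Between rat batches 4 and 3 it was 0.060 and 0.131. The runs held 7 and 12 libraries and the rat batches 26 and 20. Smaller groups give larger absolute differences by sampling alone, so these sizes are not set against each other.

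Between the sexes, limma with rat batch as a covariate called 0 of the 200 genes, against 0.0873% of all genes. At an unadjusted p under 0.05 it named 7 of the 200, against 6.46% of all genes, and voom called 0 after adjustment (0.134% of all genes) and 14 before (7.05%). The median absolute difference was 0.015 log2 units and the largest, for ENSRNOG00000001303, was 0.048 ± 0.020 higher in males (SE, adjusted p = 0.629 in limma). Differences between the sexes were part of the SD that chose the genes, so they had to be small.

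The library of rat batch 5, which took no part in the SD, lay within the range of the other 74 libraries for 198 of the 200 genes and for 98.8% of the other well-expressed genes. Its absolute distance from the mean of the batch means had a median of 0.052 over the 200 genes and 0.113 over the others. The genes outside were ENSRNOG00000011956 and ENSRNOG00000013039, at 10.77 and 13.50, each above the highest of the other libraries. It is 1 rat, so no test was made.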

How the data were processed

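RNA-Seq libraries from the nucleus accumbens core of 75 HS rats were analysed. According to their methods, the authors trimmed single-end reads with cutadapt, estimated counts with RSEM against the Ensembl rat transcriptome (build Rnor_6.0 in the submitters' processing notes), applied an upper-quartile adjustment with DESeq2, filtered genes and deposited log2 values after adding a pseudocount of 1. RSEM splits reads shared by near-identical genes by estimate, so such genes are uncertain. No per-sample column was unused (0).

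The deposited values gave back rounded scaled counts. Each library's scaling factor (0.708 to 2.183) was recovered from the pattern of whole numbers, which on data simulated for 17180 genes in 75 libraries returned 74 factors to within 1%. Recovered counts gave depth, counting error and the voom fit. Values cover counting error only, since reads carried no molecular identifiers.

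Tests used limma 3.58.1 (R 4.3.3, lmFit and eBayes with trend) on 74 libraries, with Benjamini-Hochberg adjustment over all genes. In simulated rat batch data of 17180 genes, changes were put into well-expressed genes only, with the same dispersion for all genes. Of these changes, 92 of 100 of 0.2 and 100 of 100 of 0.5 (log2) were called, with 7 unchanged genes. Smaller changes, such as the median range of 0.0998 in the 200 genes, were not simulated. Python 3.11.15, numpy 2.4.6, pandas 2.3.3, scipy 1.17.1 and matplotlib 3.10.9 were used.

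Members, lists and tests were chosen with earlier results of these data known. The text names the 10 genes of smallest SD, of highest mean and of largest range of batch means, those at the limit of 200 and members on a list, in part by count. The genes with a symbol were grouped by role after they were known, and genes named outside this rule were chosen after their values were seen. Alternatives covered pseudocounts, filters, scaling, the measure of spread, covariates and omitted rat batches or libraries. Total-count scaling of levels, SDs without the counting part, removal of the libraries' median offset, centring on the median of well-expressed genes, single sexes, omissions for the direction between rat batches, and omission of the 3 lowest totals were added after seeing the data.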

Additional observations from a re-analysis of the deposited data

Results flagged for a closer look

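The spread of the 200 residuals within a library was compared among rats of the same sex and rat batch, together with their median, in the 4 such groups that held 7 to 10 libraries (the males of rat batches 2 and 3 and both sexes of rat batch 6). Rat batch 4, which held rat 10 with a spread of 0.111, the females of rat batch 3 and the 2 females of rat batch 2 were not checked, because their groups were larger or smaller. Of 8 such checks, 1 found a library apart from the rest, where chance gives about 0.4. In rat 6 of rat batch 2, a male, the spread was 0.113 log2 units, against 0.051 to 0.076 in the other 9 males of that batch. Over all well-expressed genes its spread was likewise the widest of these males, 0.358 against 0.143 to 0.231. This library had the lowest total count, 8455342. Without it, 183 of the 200 genes were again among the least variable, their median SD was 0.078, and the number called between rat batches was again 140, against 51.8% of all genes.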

How the results depend on the processing

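No paired analysis was possible because each library came from a different rat and the labels gave no replicate numbers. The median SD of the 200 genes was 0.076 to 0.082 under 13 alternatives, and the median range of batch means 0.0797 to 0.0999 under 9. Between 152 and 200 of the genes were again chosen under 16 alternatives, but 123 when the median absolute deviation replaced the SD. The number of genes called between rat batches was between 115 and 147 under 13 alternatives, with 43.7% to 73.1% of all genes tested called. It was 88 without rat batch 3 (33.3% of all genes), 2 with the run of columns as a covariate (where 169 of all 17180 genes were called) and 0 with 20 expression components as covariates (12 of all genes). The cause was not tested. The number of genes lower in rat batches 4 and 6 was 116 to 156 under 10 alternatives chosen after seeing the data and 94 under scaling by the total count. The 0 genes called between the sexes remained 0 under all 16 alternatives in limma. Depth limits how small an SD can be measured, since counting reads made up 1.22% to 45.0% of the variance of the 200 genes.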
